A study of Homo sapiens with 11 samples.

Results

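The tubulin isotypes described here are 10 protein-coding genes taken by symbol from a table of 45965 genes: the α-tubulins TUBA1A, TUBA1B, TUBA1C and TUBA4A and the β-tubulins TUBB, TUBB2A, TUBB2B, TUBB3, TUBB4B and TUBB6. Each symbol matched 1 row. The family was chosen by a measured value, the difference of TUBA1B between the effects of a p53 polymorphism on 2 mutants. The other 4 comparisons are arms of that difference, so every value of TUBA1B below is a description with no test, and the remaining 9 genes were tested. Members were chosen with earlier results of these data known and partly by their counts. Levels are therefore a description, and the 9 were not picked independently of these data.

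The study sequenced tags from the 3′ ends of mRNA of H1299, a p53-null line from a human lung carcinoma, in 11 libraries. The cells were transfected with 5 µg of construct DNA encoding mutant p53 and selected in neomycin at 800 µg/ml for 14 days. The constructs carried the hotspot mutation R175H or R273H, each on the proline (P72) or arginine (R72) form of the codon 72 polymorphism. R175H P72 and R175H R72 had 3 libraries each and R273H P72 had 4, while R273H R72 had 1, and no library without mutant p53 is used here. By the labels, 4 libraries belong to batch b1, namely replicates 2, 3 and 4 of R273H P72 with replicate 1 of R175H R72, and 7 to batch b2. They do not say whether replicates were separate cultures or selected lines, so the p-values speak to library spread alone, and that spread may be technical.

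Microtubules are polymers of α- and β-tubulin dimers, and each subunit is encoded by several genes whose proteins differ most in their acidic C-terminal tails. TUBA1A and TUBB3 are best known from neurons, and TUBB3 is also widely studied in carcinomas in relation to taxanes. Cells hold tubulin synthesis in check by degrading tubulin mRNA during translation when free dimer is abundant: TTC5 binds the first residues of the emerging chain, and SCAPER and the CCR4-NOT deadenylase act after it.

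The start of each coding sequence is shown because those codons are what TTC5 reads through the nascent chain, with codons 2 to 4 in capitals. The sequences come from GENCODE 29 transcripts (hg38). TUBA1A, TUBA1B and TUBA1C had the same 15 bases, TUBB4B had those of TUBB, and TUBB6 those of TUBB3.
TUBA1B: atgCGTGAGTGCatc
TUBA4A: atgCGTGAATGCatc
TUBB: atgAGGGAAATCgtg
TUBB2A: atgCGCGAGATCgtg
TUBB2B: atgCGTGAGATCgtg
TUBB3: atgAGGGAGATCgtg

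The last 60 coding bases of 4 β genes, stop codon included, are shown because they encode the tails. This stretch lies 194 nt from the transcript end in TUBB2A and 293 nt in TUBB3, near where 3′ tags arise, but 490 nt from it in TUBB2B and 1029 nt in TUBB. Capitals mark bases that an alignment did not match to an identical base of the reference isotype, which was TUBB for TUBB2A and TUBB3, and TUBB2A for TUBB2B. Their places are chr6:30724338-30724397 on the plus strand for TUBB, chr6:3153863-3153922 minus for TUBB2A, chr6:3224751-3224810 minus for TUBB2B and chr16:89935745-89935804 plus for TUBB3.
TUBB: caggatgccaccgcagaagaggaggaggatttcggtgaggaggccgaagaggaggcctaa
TUBB2A: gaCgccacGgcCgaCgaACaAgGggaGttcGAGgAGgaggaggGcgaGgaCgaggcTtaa
TUBB2B: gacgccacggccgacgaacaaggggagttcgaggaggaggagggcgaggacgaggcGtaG
TUBB3: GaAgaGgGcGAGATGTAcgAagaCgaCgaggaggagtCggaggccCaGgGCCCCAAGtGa

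TUBB2B differed from TUBB2A at 2 of the 60 bases and TUBB3 from TUBB at 27. Over the whole coding sequence TUBA1A and TUBA1B were 97.2% identical and TUBB2A and TUBB2B 98.1% identical. Their last 500 transcript bases were less alike, with 76.4% and 46.4% identity. Part of that last stretch could not place a read of 75 bases: in TUBA1B 41.1% of the 426 windows of that length also occurred in another gene's transcript, TUBA1A among them. In TUBB2A 53.5% of such windows were shared, all 228 with TUBB2B, and none in TUBB2B, TUBA1C, TUBB or TUBB6. In TUBB3 98.8% were shared with AC092143.1, an annotated gene that overlaps TUBB3 on the same strand and has no row in the table. Of the TUBB3 windows, 72 also occurred in TUBB2B and 72 in TUBB2A, and 111 of the TUBB2A windows occurred in TUBB3. How reads with several matches were shared out is not stated, and TUBA1A also overlaps TUBA1C on the opposite strand, where the use of strand in counting is not given.

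**Figure D1:**
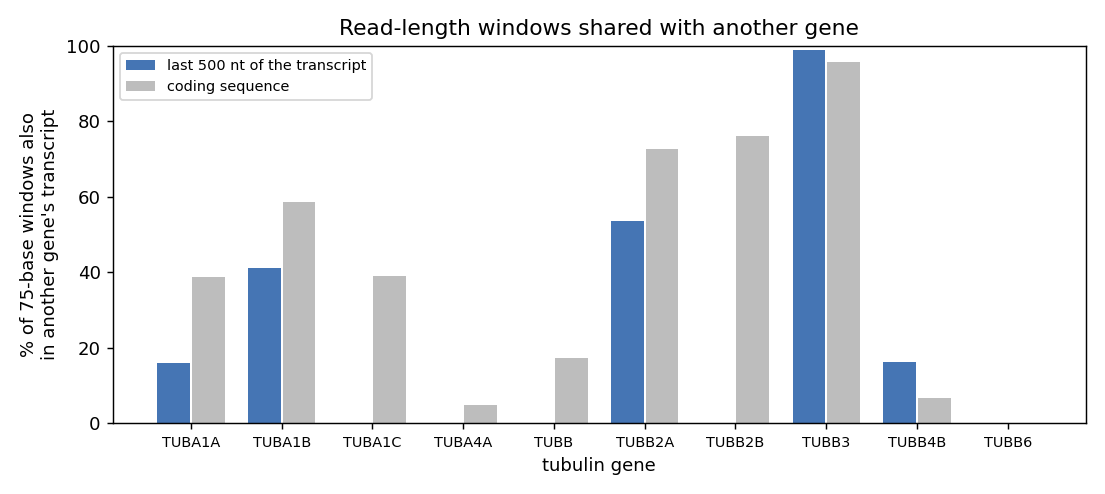
Percentage of 75-base windows of each member (y axis, %) found also in a transcript of another gene, for the last 500 nt of the transcript (blue) and the coding sequence (grey). TUBB3 and TUBB2A had the highest shares near the transcript end, and TUBA1C, TUBA4A, TUBB, TUBB2B and TUBB6 had none there.

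Library totals lay between 8346926 and 12829560 estimated counts. In CPM (counts scaled to the library size, with TMM factors), defining markers of H1299 as an epithelial line with mesenchymal traits were present, with KRT8 at 241 to 300.1 CPM and VIM at 754 to 1825 CPM, while KRT19, EPCAM and CDH1 stayed below 1 CPM. Of 12 neuronal and neuroendocrine markers, 3 (DCX, CHGA and INSM1) had no count in any library and the list summed to 12.4 to 23.1 CPM. The mesenchymal list of 4 genes summed to 1058 to 1357 CPM in R273H P72, 1670 to 2062 CPM in R175H P72, 1498 to 1836 CPM in R175H R72 and 1558 CPM in R273H R72, and its part in the results below was not tested.

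H1299 cells drew most of their tubulin tags from 4 genes. TUBB, the common β-tubulin of dividing cells, averaged 2823 ± 264 CPM (SD, n = 11), and TUBA1C, a widely expressed α-tubulin, 2736 ± 476 CPM. TUBB lay above TUBA1C in 7 of 11 libraries, so their order was not settled by the spread. TUBB6 followed at 1672 ± 297 CPM and TUBA1B, a widely expressed α-tubulin, at 1246 ± 349 CPM, with TUBB6 higher in 10 of 11 libraries. These levels are tag counts, not divided by length.

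The 2 leading β genes are given here library by library. TUBB (chr6:30720201-30725426, plus strand) measured 2801, 2777 and 2770 CPM in R175H P72 replicates 1, 2 and 4, 3100 (R175H R72 replicate 1), 2507 (replicate 2) and 2730 CPM (replicate 4), then 2729, 3275, 3102 and 2896 CPM in R273H P72 replicates 1 to 4 and 2365 CPM in the R273H R72 library. TUBB6 (chr18:12307669-12344320, plus strand) measured 1765, 1657 and 1615 CPM, then 1915, 1165 and 1657 CPM, then 1283, 2107, 1994 and 1843 CPM and 1389 CPM, in the same order. In both genes the P72 and R72 forms of R175H overlapped, and so did R175H P72 and R273H P72.

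The middle of the order was close. TUBB4B, a β-tubulin of many tissues, averaged 365 ± 44.6 CPM, TUBB2B 352 ± 52.0 CPM and TUBB3 326 ± 76.2 CPM, and the ranges of all 3 overlapped. Dividing by transcript length exchanged TUBB2B and TUBB3 in rank and moved no other member. TUBA1A averaged 90.5 ± 19.9 CPM and TUBB2A 19.1 ± 1.39 CPM. TUBA4A was near the floor, with 0 to 24 counts per library, and its 0 in R273H P72 replicate 2 allows up to 0.352 CPM (3 counts, counting error only). Of the 8 other α- and β-tubulin genes listed, 2 passed the filter on low counts: TUBA8, with 129 counts over all libraries, and TUBB8, with 51.

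**Figure D2:**
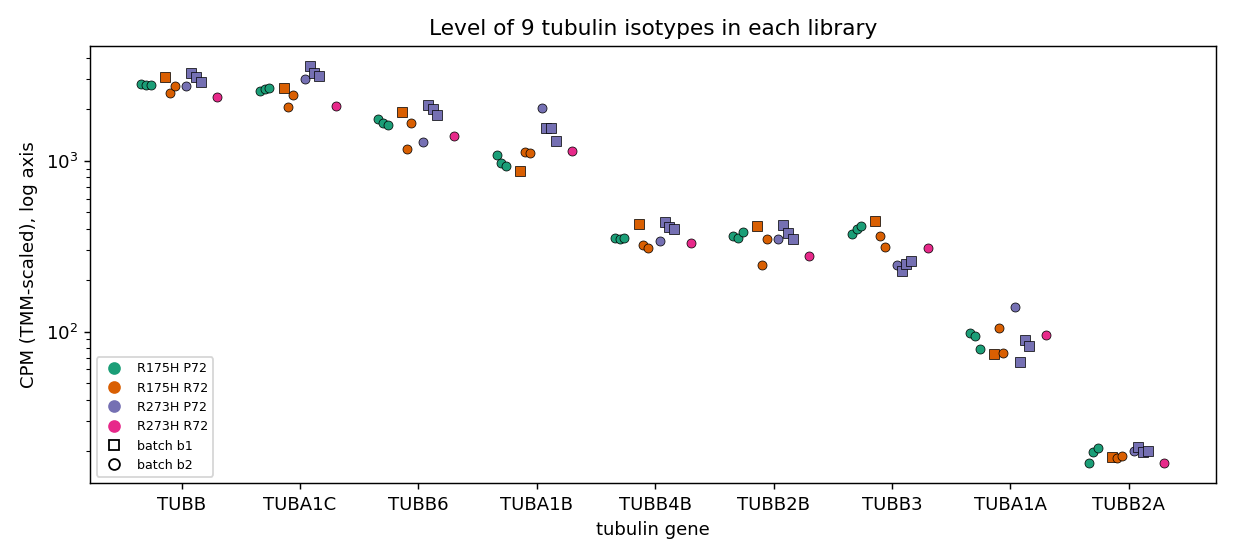
Level of 9 members in each of the 11 libraries (y axis, CPM on a log axis), coloured by group, squares for batch b1 and circles for batch b2; TUBA4A is left out because it is 0 in 1 library. TUBB, TUBA1C, TUBB6 and TUBA1B lie above the other 5 genes in every library.

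TUBA1B, one of the major α-tubulins of proliferating cells (ENSG00000123416, chr12:49127782-49131397, minus strand), was highest in cells with R273H P72. It measured 1084, 964 and 932 CPM in R175H P72 replicates 1, 2 and 4, and 875, 1131 and 1116 CPM in R175H R72 replicates 1, 2 and 4. In R273H P72 replicates 1 to 4 it measured 2044, 1549, 1563 and 1311 CPM, and in the R273H R72 library 1133 CPM. All 4 R273H P72 libraries were above the other 7, and replicate 1 of that group stood highest. The share of all genes that set these 4 libraries apart from the other 7 was not computed.

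The fitted log2 fold change of TUBA1B for R273H over R175H on P72 was 1.00 (SE 0.10), a 2.00-fold higher level. On R72 the same mutant comparison gave -0.01 (SE 0.13). R72 over P72 was 0.20 (SE 0.09) on R175H and -0.81 (SE 0.14) on R273H, where 1 library stands for R72. Group and batch were both in the model.

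The size of the TUBA1B difference depended on how copies and batches were treated. Without a batch term the estimate for R273H over R175H on P72 was 0.70 (SE 0.13), and within batch b2, where R273H P72 has replicate 1 only, it was 1.04 (SE 0.12). Without that replicate it was 0.93 (SE 0.16). Batch b1 holds no R175H P72 library, so no value within b1 could be had. Summing TUBA1A, TUBA1B and TUBA1C before the fit gave 0.44 (SE 0.10), and summing TUBA1A with TUBA1B alone, a setting added after seeing the data, gave 0.96 (SE 0.10).

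TUBB3, the class III β-tubulin known from neurons (ENSG00000258947, chr16:89921392-89938761, plus strand), was lowest in cells with R273H P72. It measured 374, 399.7 and 415 CPM in R175H P72 replicates 1, 2 and 4, and 441, 362 and 312 CPM in R175H R72 replicates 1, 2 and 4. In R273H P72 replicates 1 to 4 it measured 246, 226, 247 and 259 CPM, and in the R273H R72 library 307 CPM. The 4 R273H P72 libraries were below the other 7, the opposite placing to TUBA1B.

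For R273H over R175H on P72, TUBB3 fell by 0.83 on the log2 scale (SE 0.11, adjusted p = 7.6e-05, edgeR quasi-likelihood test), a 1.77-fold lower level, with no overlap between the 4 and 3 libraries. It was the 1 of the 9 tested members that passed the threshold of 0.05 there. An unadjusted p under 0.05 (edgeR) was found for 3 of the 9, beside 27.8% of all genes. Over all genes, 14.6% of 16324 passed in this comparison, 7.6% as lower and 6.95% as higher. The share of all genes without overlap between these libraries was not computed. TUBB3 was called lower in all 24 alternative analyses, between -1.09 and -0.55. Within batch b2, where R273H P72 is 1 library whose spread is assumed to be that of the other groups, the value was -0.69 (adjusted p = 0.00787, edgeR), with GC content corrected -0.67 (adjusted p = 0.000411), and in b2 with that correction, added after seeing the data, -0.55 (adjusted p = 0.0274). The last 500 bases of TUBB3 held 58.6% GC, the highest of the 10 genes.

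On R72, TUBB3 was -0.21 (SE 0.14) for R273H over R175H, with an adjusted p of 1 (edgeR). R72 over P72 was -0.16 (SE 0.10, adjusted p = 0.509, edgeR) on R175H and 0.46 (SE 0.14, adjusted p = 0.327, edgeR) on R273H. The difference of those effects, 0.62 (SE 0.19), did not pass either (adjusted p = 0.224, edgeR). Its opposite sign to the difference of TUBA1B, -1.01 (SE 0.18), rests on the same libraries, since these comparisons share groups.

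TUBA1C (ENSG00000167553, chr12:49188736-49274603, plus strand) was also highest in the R273H P72 libraries. It measured 2566, 2632 and 2660 CPM in R175H P72 replicates 1, 2 and 4, and 2663, 2048 and 2427 CPM in R175H R72 replicates 1, 2 and 4. In R273H P72 replicates 1 to 4 it measured 3027, 3592, 3258 and 3123 CPM, and in the R273H R72 library 2096 CPM. Again the 4 R273H P72 libraries lay above the other 7 in CPM not adjusted for batch, and all of them but replicate 1 are of batch b1. The share of all genes placed in this way was not computed. The fitted difference on P72 was 0.17 (SE 0.10, adjusted p = 0.297, edgeR), with batch in the model. The batch term itself was 0.19 (adjusted p = 0.194, edgeR) and was not called, and within b2 R273H P72 replicate 1, at 3027 CPM, lay above the other 6 libraries. Without a batch term it was 0.31 (adjusted p = 0.0447, edgeR).

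**Figure D3:**
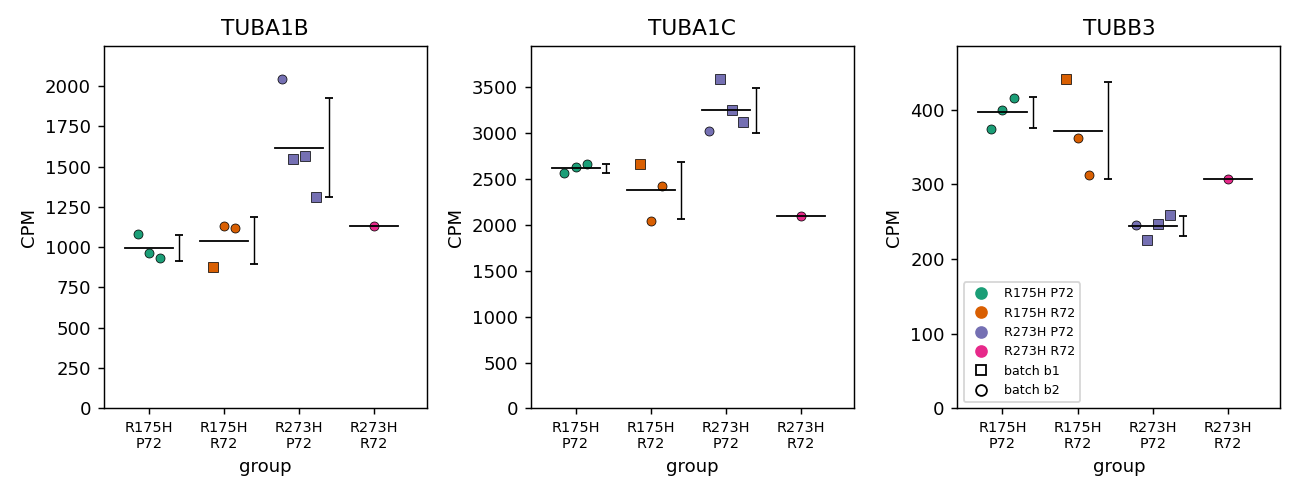
TUBA1B, TUBA1C and TUBB3 in each library by group (y axis, CPM from 0), squares for batch b1 and circles for b2, horizontal lines for group means and bars for SD where n exceeds 1. The 4 R273H P72 libraries lie above all others for TUBA1B and TUBA1C and below all others for TUBB3. The share of all genes with such a placing was not computed.

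The remaining 7 members did not pass the test for R273H over R175H on P72. TUBA1A, a mainly neuronal α-tubulin, was 0.46 (SE 0.19, adjusted p = 0.134, edgeR) and passed in 5 alternatives, among them batch b2 alone. It measured 139 CPM in R273H P72 replicate 1 and 66.0 to 89.5 CPM in the other 3 libraries of that group, and without replicate 1 the estimate was 0.10. TUBB6 was -0.32 (SE 0.13, adjusted p = 0.0988, edgeR) and passed without the filter on low counts (adjusted p = 0.033) and without R175H R72 replicate 4 (adjusted p = 0.00646). Its unadjusted means ran the other way, at 1679 CPM in R175H P72 and 1807 CPM in R273H P72. Over the alternatives its estimate lay between -0.42 and 0.11, so its sign depended on the setting. TUBB2B, TUBB4B, TUBB and TUBB2A had log2 fold changes of -0.19, -0.11, -0.05 and 0.06, and the estimate of TUBA4A had an SE of 1.37. The median over the 10 members, a description since TUBA1B is among them, was -0.08, beside 0.00 over all genes.

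No member passed for R72 over P72 on R175H, where 1.13% of all genes did, and 2 of the 9 tested had an unadjusted p under 0.05, beside 13.6% of all genes. All but TUBA1A and TUBA1B had negative estimates. The median over all members, a description since TUBA1B is among them, was -0.15 beside 0.00 over all genes. TUBB6, whose 3 R175H R72 libraries spread from 1165 to 1915 CPM around R175H P72 values of 1615 to 1765 CPM, was -0.28 (SE 0.11, adjusted p = 0.241, edgeR). It passed without R175H R72 replicate 4, at -0.50 (adjusted p = 0.015, edgeR), and with no filter (adjusted p = 0.0497). DESeq2 and limma-voom called none of them.

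For R72 over P72 on R273H, 0 of 16324 genes passed in edgeR, and 1265 had an unadjusted p under 0.05; DESeq2 called 112 and limma-voom 0. The comparison has 1 R72 library, whose spread was taken from the other groups. TUBA1C was -0.49 (SE 0.13, adjusted p = 0.247, edgeR), and DESeq2 called it lower (adjusted p = 0.0139), as did edgeR with no filter (adjusted p = 0.0385). Estimates of the other members lay between -0.38 for TUBA1A and 0.05 for TUBB6, TUBA1B and TUBB3 aside. For R273H over R175H on R72, 0.0429% of all genes and no member passed, none had an unadjusted p under 0.05, and DESeq2 and limma-voom called none. For the difference of the R72 effects, 0.0306% of all genes passed and none of the 9 tested members did in edgeR, DESeq2 or limma-voom; 1 of the 9, TUBB3, had an unadjusted p under 0.05 (0.00318, edgeR), beside 10.2% of all genes.

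**Figure D4:**
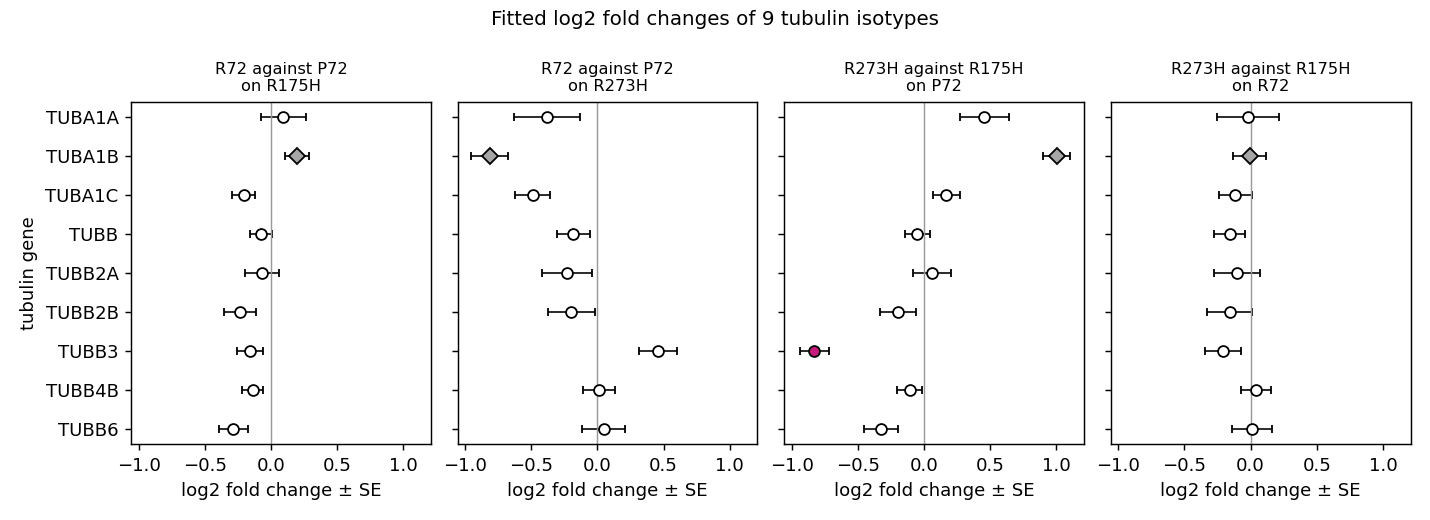
Fitted log2 fold changes of 9 members with their SE (x axis) in 4 comparisons; filled circles passed an adjusted p of 0.05, open circles did not, and grey diamonds are TUBA1B, which was not tested. TUBB3 on P72 is the filled circle; TUBA4A is left out for its SE above 1.

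The batch term, fitted with the groups in the model, was called for 3 of the 9 tested members, beside 9.21% of all genes (3.6% higher and 5.61% lower in b1). TUBB6 was 0.54 (SE 0.11, adjusted p = 0.00363, edgeR) and TUBB4B 0.36 (SE 0.08, adjusted p = 0.00478) higher in b1 than in b2, and TUBA1A was lower by 0.58 (adjusted p = 0.0465). The fitted term of TUBA1B was -0.42, while its unadjusted mean was 1325 CPM in b1 and 1200.4 CPM in b2. TUBB4B measured 398 to 436 CPM in the 4 b1 libraries and 306 to 355 CPM in the 7 b2 libraries. TUBB and TUBB6 also had no overlap between the batches, though the fitted term of TUBB, 0.21 (SE 0.08), was not called (adjusted p = 0.114, edgeR). Most b1 libraries are R273H P72, so these unadjusted ranges also divide the groups. The share of all genes without such overlap was not computed.

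Apart from TUBB3, the more abundant β-tubulins moved together from library to library. Over the 11 libraries, which share the 4 groups and 2 batches, Pearson's r of log2 CPM with TUBB was 0.87 for TUBB2B, 0.86 for TUBB4B and 0.86 for TUBB6, against -0.26 for TUBB3 and 0.55 for TUBB2A. Among the α genes TUBA1B and TUBA1C had an r of 0.56, TUBA1A and TUBA1B 0.43 and TUBA1A and TUBA1C -0.25. Outside the family, the genes most like TUBB were MMS19 (r = 0.98), PPP2R3C, TBCD, ACTN1 and INO80B, and those most like TUBA1C were NR2F6 (r = 0.97), TPM1, GCC1, RABL6 and CLUH, among 7731 genes. TBCD is a cofactor that folds β-tubulin.

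The sums of α and β tags are given as a description, since the α sum contains TUBA1B. The 4 α genes summed to 3704 ± 39.4 CPM (n = 3) in R175H P72, 3505 ± 192 CPM (n = 3) in R175H R72, 4962 ± 328 CPM (n = 4) in R273H P72 and 3324 CPM in the R273H R72 library. The 6 β genes summed to 5593 ± 68.5, 5435 ± 852, 5839 ± 654 and 4685 CPM in the same order. The ratio of the sums was 0.661 to 0.665 in R175H P72, 0.572 to 0.711 in R175H R72, 0.710 in R273H R72 and 0.784 to 1.05 in R273H P72, where replicate 1 was the highest. All 4 R273H P72 ratios were above the other 7. Without TUBA1B the ratio was 0.545 to 0.638 in R273H P72, 0.470 to 0.493 in R175H P72, 0.433 to 0.466 in R175H R72 and 0.468 in R273H R72, with the 4 libraries again above the other 7.

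Within the sums, TUBB and TUBB6 supplied most β tags in each group. TUBB made up 49.8% ± 0.339 of β tags in R175H P72 and 51.6% ± 2.30 in R273H P72, and TUBB6 30.0% ± 1.03 and 30.7% ± 3.24. TUBB3 made up 7.09% ± 0.451 (n = 3) in R175H P72, 6.88% ± 1.02 (n = 3) in R175H R72, 4.24% ± 0.629 (n = 4) in R273H P72 and 6.55% in R273H R72. TUBB3 shares in the R273H P72 libraries, 3.48% to 4.95%, did not reach those of any other library. TUBA1B made up 26.8% ± 1.87 of α tags in R175H P72 and 32.5% ± 4.66 in R273H P72, and the R175H R72 values, 24.2% to 34.4%, overlapped both.

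**Figure D5:**
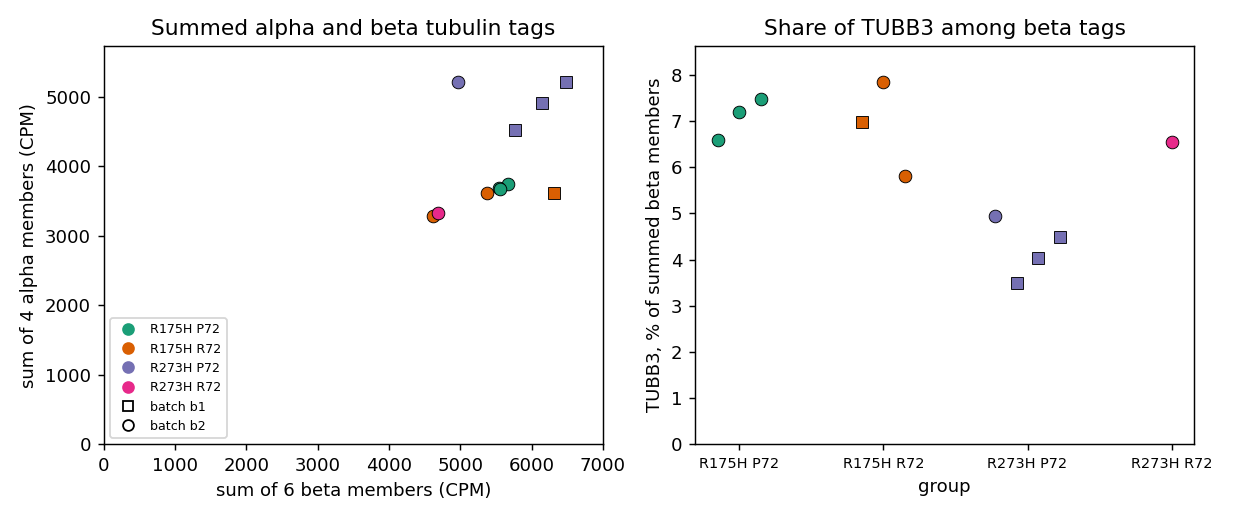
Left, summed α against summed β members (CPM) in each library; right, TUBB3 as a percentage of the summed β members by group; squares are batch b1 and circles b2. R273H P72 libraries have the highest α sums and the lowest TUBB3 shares.

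Genes that act on tubulin were described from lists beside the family. The lists were chosen with earlier results of these data known, so their counts are a description and do not show an excess. For R273H over R175H on P72, where 7.6% of all genes were lower and 6.95% higher, 5 of the 21 folding genes were lower and none higher: TBCB, a chaperone of α-tubulin (-0.55, adjusted p = 0.00099, edgeR), PFDN2 and PFDN1 of prefoldin (-0.52 and -0.39), ARL2, a regulator of the folding cofactors (-0.43), and CCT7 of the chaperonin (-0.33). The list's median was -0.01, beside 0.00 over all genes. Of the 12 genes of tubulin mRNA autoregulation, CNOT7, a deadenylase subunit, was lower (-0.42, adjusted p = 0.00512, edgeR), and none was higher. Of 19 tested genes of tubulin modification 1 was lower, TTLL1, a polyglutamylase, at -1.70 (SE 0.41) and under 3 CPM in each group's mean.

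Of 26 genes of microtubule dynamics and severing, 2 were higher and 4 lower on P72, beside 6.95% and 7.6% of all genes. EML4 (0.53) and the severing-family gene FIGNL1 (0.61) were higher, and EML3 (-1.07), the stathmin STMN3 (-0.81) and MAP1B (-0.28) were among those lower. All fitted values of these lists include the batch adjustment, and unadjusted means can differ less. EML3 averaged 20.8 CPM in R175H P72 and 16.3 CPM in R273H P72, and EML4 87.0 and 97.1 CPM. STMN3, at 21.7 and 12.7 CPM, was close to its fitted value. Of 19 nucleation genes, MZT2B and TUBGCP2 of the γ-tubulin complexes were lower (both -0.35), beside the same 7.6%. Their unadjusted means in R175H P72 and R273H P72 lay closer, at 371 and 358 CPM for MZT2B and 117 and 111 CPM for TUBGCP2. For R72 on R175H, EML3 alone of all these lists passed (-1.15, adjusted p = 0.000736, edgeR), and no listed gene passed in the other 3 comparisons.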

How the data were processed

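The authors deposited estimated counts for each Ensembl gene, as whole numbers, made from Lexogen QuantSeq 3′ libraries (single 75 bp reads, per the labels' protocols). Tools named in the submitters' processing notes, without order or settings, were Bowtie2, RSEM 1.2.12 and DESeq2 on hg38; strand use in counting and the handling of reads with several matches are not given in the sources used here. Members and gene lists were chosen with earlier results of these data known, and the named genes were all members, listed genes with the smallest p, and the 5 closest neighbours of TUBB and TUBA1C.

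Genes kept by filterByExpr (minimum count 10, minimum total 15) numbered 16324. They were fitted with edgeR 4.0.16 (R 4.3.3), robust quasi-likelihood, TMM scaling, on the 4 groups and batch over 11 libraries, with Benjamini-Hochberg adjustment over all genes and 0.05 as the threshold. The procedure was also run on simulated counts that held no batch difference, so that run does not bear on the batch adjustment. Of the gene IDs, 42551 of 45965 are in GENCODE 29. Alternatives were RLE scaling, library totals, 2 other filters, DESeq2 1.42.0, limma-voom (limma 3.58.1), no batch term, batch b2 alone, a replicate block, each library left out, a GC content correction and summed copies. Comparisons share groups. Some genes that the naming rule took and some sequences are not reported here. The test of the batch term and the sums without TUBA1B were added after seeing the data.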

Additional observations from a re-analysis of the deposited data

Results flagged for a closer look

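The effect of R72 over P72 on TUBA1B differed between the mutants by -1.01 on the log2 scale (SE 0.18), being 0.20 on R175H and -0.81 on R273H. The difference is an interaction of the 4 groups with 1 R273H R72 library, and since it was known when the family was picked, it stands as a description.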

How the results depend on the processing

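The counts here run over all 10 members; TUBA1B, whose value chose the family, is in them without being tested, and no support is drawn from its part. For R273H over R175H on P72 the count of 2 became 4 with no filter and 3 with DESeq2 and with no batch term. It was 2 to 4 when libraries were left out in turn. No count is given for batch b2 alone, where R273H P72 has 1 library. For R72 on R175H the count went from 0 to 1 with no filter and to 0 to 1 with libraries left out. For R72 on R273H it was 2 with no filter, 2 with DESeq2 and 0 to 1 with libraries left out. For the difference of the R72 effects the count of 1, which is TUBA1B, became 0 with no batch term, in batch b2 alone, in b2 with the GC content correction, with that correction alone, with near-identical copies summed and with TUBA1A and TUBA1B summed, and 0 to 1 with libraries left out. The causes were not tested.

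With the replicate number as a block it was also 0, and the block changed no other call. Deviations of same-numbered libraries from their group means had correlations of -0.61 to 0.25. Batch was not removed from these deviations, so they cannot decide whether the numbers pair the libraries.

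TUBA1B for R72 on R175H turned to -0.073 with copies summed. Its value for R273H over R175H on R72 turned to 0.024 with library totals, 0.017 with the 10 CPM filter, 0.123 with no batch term and 0.006 in b2 alone, and lay between -0.037 and 0.012 with libraries left out. Its level in R273H R72 was 1164 CPM by library totals, and per length TUBB2B ranked 7 and TUBB3 6. Of 50 member results 24 changed sign in some alternative, none while called. Leaving out the R273H R72 library gives no value for 3 comparisons, and no row carries a pseudogene symbol, so that sum was not run. A single R273H R72 library and few TUBA4A counts limit the precision.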
